A study of Rattus norvegicus with 24 samples.

Results

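The genes described here are 10 genes of autophagy, listed by name: Ulk1, Becn1, Atg5, Atg7, Map1lc3a, Map1lc3b, Gabarap, Gabarapl1, Sqstm1 and Fyco1. Their RNA was measured on 24 Affymetrix rat arrays, whose features are probe sets, groups of short probes for a stretch of a transcript. A probe set was taken as a member when the platform annotation gave it exactly 1 symbol and that symbol was in the list. This gave 19 probe sets of 9 genes, among 31042 probe sets and 14217 genes in all. Map1lc3b had no probe set with 1 symbol, since it is annotated together with another gene, and was not analysed here. All rats were of the Brown Norway strain, with no other treatment or allele given in the labels. The 4 groups were pachytene spermatocytes of young rats aged 4 months, pachytene spermatocytes of aged rats aged 18 months, round spermatids of young rats and round spermatids of aged rats. Each group held 6 arrays, 1 per rat, and a rat number that occurs in both fractions at the same age was taken as 1 rat. The fractions are enriched rather than pure: testes were digested with 2 enzymes, collagenase and trypsin, and the cells were separated on a density gradient to a stated purity above 83%.

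Autophagy encloses cytoplasm in a double membrane, the autophagosome, which then fuses with the lysosome for degradation. Kinase complexes around Ulk1 and Becn1 start the membrane, Atg7 and Atg5 serve the conjugation that couples LC3 and GABARAP proteins to its lipid, and cargo receptors such as Sqstm1 bind those proteins. Fyco1 links LC3-bearing vesicles to kinesin motors. In spermatogenesis, the pachytene stage belongs to meiotic prophase, when chromosomes recombine. Round spermatids come after both meiotic divisions, are haploid, and build the acrosome. Mouse studies have tied Atg7 to the formation of the acrosome.

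The study's files allow 3 questions on these genes: whether their RNA differed between the fractions, whether it differed with age within each fraction, and whether the age change itself differed between fractions. The deposited values are log2 signals. For age, levels were quantile normalized within a fraction. For comparisons between fractions, a constant of 90.3 was first added to the linear pachytene signals, since a control transcript that is not present read 4.19 to 4.38 on the pachytene arrays and 6.77 to 6.90 on the round spermatid arrays (group means, log2). The 24 arrays were then quantile normalized together. Where these comparisons are given under another scaling, the constant was added as well. For them "as deposited", "deposited scale" and "without normalization" thus mean the deposited values after the added constant. A probe set is called when its Benjamini-Hochberg adjusted p in limma, over all probe sets, is under 0.05, and a gene with several probe sets is represented by the brightest. "Rose" and "fell" are used of called changes. In a fraction of many cells, fewer cells of a type and less RNA per cell cannot be told apart.

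Pachytene markers and markers of round spermatids and the acrosome differed between the fractions in the direction of the labels. Each fraction also carried markers of the other stage. Of 8 measured pachytene markers, 7 were lower in round spermatids, with Ccna1 the exception. Of the markers of round spermatids and the acrosome, 8 of 8 were higher there. On pachytene arrays the pachytene list mean lay 3.32 to 3.85 above the median of all genes. The list of round spermatids and the acrosome lay 4.06 to 4.99 and the late spermiogenesis list 4.50 to 6.12 above it there. On round spermatid arrays the pachytene list mean was still 1.60 to 2.15 above the median. Young rats 1, 10 and 11 stood apart in pachytene spermatocytes, with scores of 44.0 to 86.3 on a first principal component that held 73.9% of the variance, against -3.78 to 7.38 for the other young rats. On those arrays late spermiogenesis markers were also highest. Age results of the members are therefore given with and without these 3 rats where they change. The 3 rats were chosen on the pachytene arrays and left out of both fractions. On round spermatid arrays they scored 9.81, 40.7 and 18.7 on the first component and young rat 13 scored 13.9, so rat 1 did not stand apart there. Leaving them out also leaves fewer young arrays, so a call can be lost through lower precision alone. Other autophagy genes and marker lists are given with all rats only. The median change of all probe sets with age moved with the scaling, from -0.24 (deposited scale) to 0.13 (median centring) in pachytene spermatocytes and from 0.0072 (median centring) to 0.18 (hybridization controls) in round spermatids.

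RefSeq's promoter table for assembly GRCr8 held 8 of the 10 genes, all but Becn1 and Map1lc3a. The 250 bases before the table's start site were searched on both strands for CACGTG (the E-box), TGACNNNGC (the core of the antioxidant response element) and TGACGTCA (the cAMP response element). For 3 of the 8 (Atg7, Fyco1 and Map1lc3b) this window lies inside the gene's annotated span, and for 5 before it. CACGTG was found in 1 of 8, Atg5, and in 5.59% of 33469 promoters in the table. TGACNNNGC was found in 1 of 8, Gabarap, and in 10.1% of all. TGACGTCA was found in 0 of 8, against 1.59% of all. These are matches of letters and no more. The upstream sequences of 3 members are shown with any match in capitals: Gabarapl1, which differed most between the fractions, and Atg5 and Gabarap, which hold the matches. They lie at chr4:164666082-164666331, chr20:49380585-49380834 and chr10:55213215-55213464, all on the plus strand of GRCr8, directly before the first base of the gene, and are written 5′ to 3′. The match lies 19 bases before the start in Atg5 and 179 bases before it in Gabarap, there on the minus strand.
Gabarapl1: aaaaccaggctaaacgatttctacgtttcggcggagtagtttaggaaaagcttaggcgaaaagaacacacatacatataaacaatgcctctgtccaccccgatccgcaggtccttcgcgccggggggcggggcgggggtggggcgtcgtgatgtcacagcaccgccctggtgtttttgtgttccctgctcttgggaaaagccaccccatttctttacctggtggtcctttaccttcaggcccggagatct
Atg5: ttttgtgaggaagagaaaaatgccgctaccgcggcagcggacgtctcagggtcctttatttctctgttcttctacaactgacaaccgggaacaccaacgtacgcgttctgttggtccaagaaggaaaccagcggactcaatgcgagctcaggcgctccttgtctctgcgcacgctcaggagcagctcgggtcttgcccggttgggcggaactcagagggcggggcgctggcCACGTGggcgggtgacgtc
Gabarap: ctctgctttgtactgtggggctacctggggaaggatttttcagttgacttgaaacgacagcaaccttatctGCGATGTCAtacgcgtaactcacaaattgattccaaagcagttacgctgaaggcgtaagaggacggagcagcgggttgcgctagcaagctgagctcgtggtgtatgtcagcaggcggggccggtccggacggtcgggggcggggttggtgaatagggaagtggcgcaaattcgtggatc

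Between the fractions, 9 of 9 genes were called, 4 higher in round spermatids (Gabarapl1, Map1lc3a, Sqstm1 and Atg5) and 5 lower (Fyco1, Becn1, Ulk1, Atg7 and Gabarap). A call is common here: of all probe sets 85.1% were called, and of all genes 49.7% were higher and 38.6% lower, so the count of calls does not set these genes apart. The split moved with the scaling, the added constant being kept. It was 3 higher and 5 lower with median centring. It was 2 higher and 6 lower both as deposited and when centred on hybridization controls. The shares of all genes under these scalings are not given here. The sizes differed among them. The median log2 difference of the 9 genes was -0.23, against 0.061 for all genes. Levels are given for the lowest, median and highest array of a group, and differences as round spermatids minus pachytene spermatocytes with their standard error (SE).

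**Figure D1:**
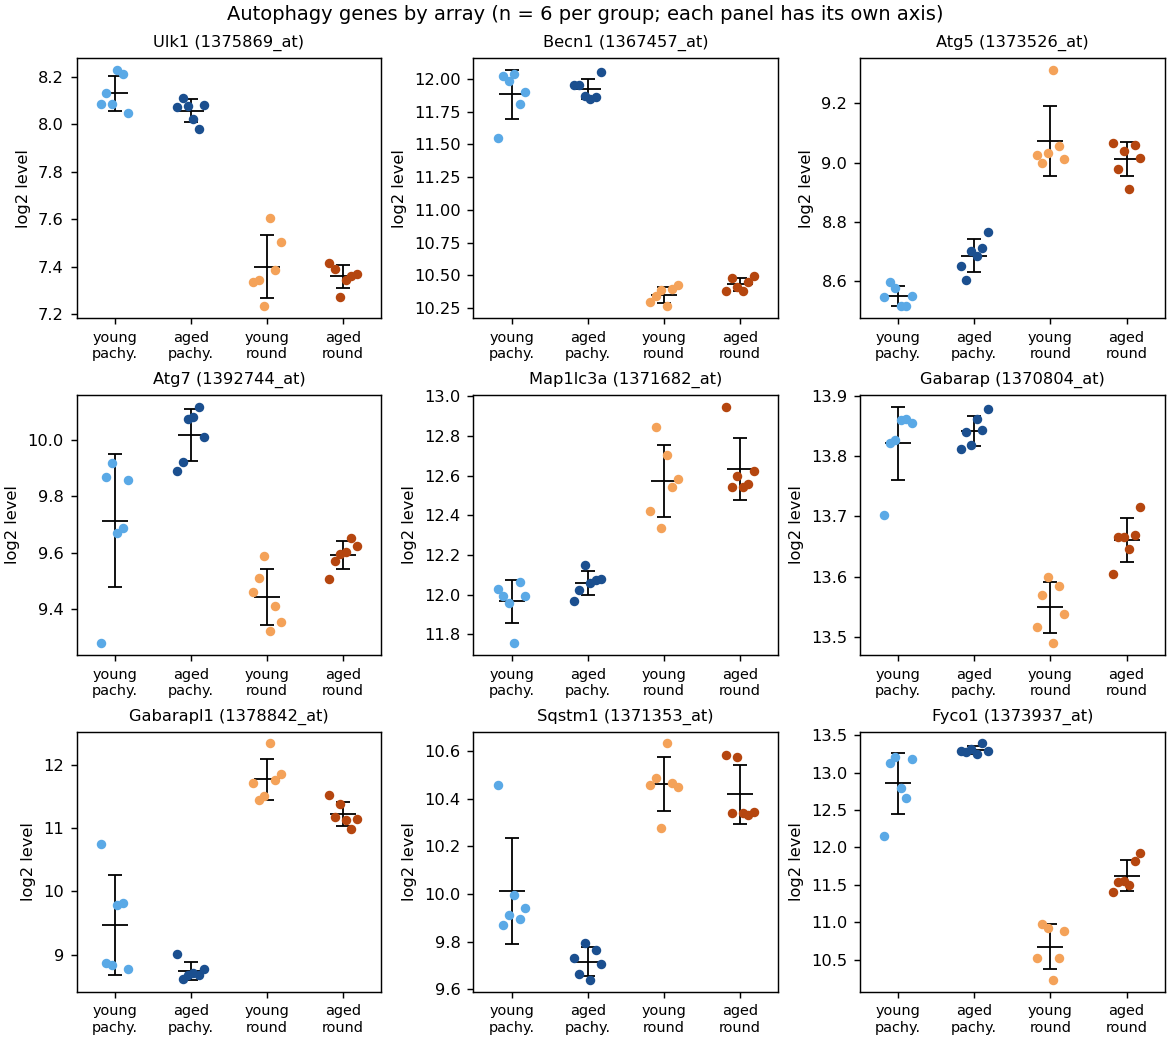
Log2 level of the brightest probe set of each gene on each array, on the scale set across fractions, with the mean and SD of the group (n = 6). Each panel has its own axis. Fyco1 and Becn1 lie lower and Gabarapl1 and Map1lc3a higher on every round spermatid array than on any pachytene array, and Fyco1 is higher in aged than in young rats in both fractions.

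Ulk1, the kinase that starts autophagy, read 8.05, 8.11 and 8.23 in young and 7.98, 8.08 and 8.11 in aged pachytene spermatocytes. In round spermatids it read 7.23, 7.37 and 7.60 in young and 7.27, 7.37 and 7.42 in aged rats. The fractions did not overlap in any rat, and the difference was -0.71 ± 0.033 (SE). The round spermatid levels lay near those of the absent control, which averaged 6.84 and 6.83 in young and aged rats, so Ulk1 was dim there. A second probe set of Ulk1, 1382402_at, went the other way (0.18 ± 0.028, adjusted p = 2.91e-06). Without the added constant the difference of the brightest probe set was -1.04, and with 2 times the constant -0.59.

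Becn1, the beclin subunit of the lipid kinase complex, read 11.55, 11.95 and 12.04 in young and 11.85, 11.91 and 12.05 in aged pachytene spermatocytes. It read 10.26, 10.36 and 10.42 in young and 10.38, 10.43 and 10.49 in aged round spermatids. All 12 round spermatid arrays lay below all 12 pachytene arrays, by 2.85-fold (-1.51 ± 0.043, adjusted p = 3.27e-19).

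Atg5, part of the ligase for LC3 proteins, and Atg7, the enzyme that activates them, went opposite ways. Atg5 was higher in all 12 round spermatid arrays by 0.42 ± 0.030 after quantile normalization, but lower under the other scalings, by -0.058 when arrays were centred on their medians, -0.12 as deposited and -0.17 when centred on hybridization controls, so that its direction depends on the scaling. Its dim probe set 1396878_at differed by -0.054 (adjusted p = 0.0241) and 1385526_at by 0.14, and both also changed sign with median centring. The call of 1396878_at was lost without young rat 3 or aged rat 5 alone (adjusted p = 0.0545 and 0.0663). Atg7 was lower in round spermatids by -0.35 ± 0.054, in 11 of 12 rats, and its probe set 1374128_at by -0.52 ± 0.090. The probe set 1394749_at differed in the other direction, by 0.30 ± 0.034.

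The LC3 and GABARAP family split. Map1lc3a, the gene of LC3A, read 11.76, 11.99 and 12.06 in young and 11.97, 12.06 and 12.15 in aged pachytene spermatocytes, against 12.34, 12.56 and 12.84 in young and 12.54, 12.58 and 12.95 in aged round spermatids. It was higher in round spermatids in 12 of 12 rats, with no overlap (0.59 ± 0.053, adjusted p = 3.76e-10), and it stayed between 0.56 and 0.67 under the 3 other scalings.

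Gabarapl1, a GABARAP homologue, had the largest difference of the 9 genes. Its brightest probe set, 1378842_at, read 8.78, 9.33 and 10.74 in young and 8.61, 8.69 and 9.01 in aged pachytene spermatocytes. In round spermatids it read 11.44, 11.74 and 12.34 in young and 10.99, 11.15 and 11.52 in aged rats. Every round spermatid array lay above every pachytene array, by 5.24-fold (2.39 ± 0.17, adjusted p = 6.00e-12). The second probe set, 1371680_at, did not show this: its difference was -0.16 ± 0.086 (adjusted p = 0.0923), higher in 5 of 12 rats, so the rise rests on 1 of the gene's 2 probe sets. Of 9 late spermiogenesis markers, 9 had more RNA in round spermatids, and their part in the Gabarapl1 difference was not tested.

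Gabarap, on the array among the brightest transcripts, differed little. Its brightest probe set read 13.70, 13.84 and 13.86 in young and 13.81, 13.84 and 13.88 in aged pachytene spermatocytes, against 13.49, 13.55 and 13.60 in young and 13.60, 13.67 and 13.72 in aged round spermatids. It was lower in 12 of 12 rats by only -0.23 ± 0.019, and with median centring the call was lost (-0.066, adjusted p = 0.136). Probe set 1378279_at was higher in round spermatids in all 12 rats (0.75 ± 0.053), and the mean over both probe sets gave 0.26, so the direction for the gene depends on the probe set.

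Sqstm1, the receptor p62, was higher in round spermatids with each of its 4 probe sets, by 0.099 to 0.58 after quantile normalization. Of these 1371220_at was dim. Normalized within the fraction, it averaged 7.42 in young and aged round spermatids, where the absent control averaged 6.84 and 6.83. Probe set 1371221_at averaged 7.99 and 8.04 there. The brightest, 1371353_at, read 9.87, 9.93 and 10.46 in young and 9.64, 9.72 and 9.79 in aged pachytene spermatocytes, against 10.28, 10.46 and 10.63 in young and 10.33, 10.34 and 10.58 in aged round spermatids. It was higher in 11 of 12 rats (0.58 ± 0.056), though the difference was 0.062 as deposited (adjusted p = 0.413) and 0.0065 after centring on hybridization controls (adjusted p = 0.927). Probe sets 1389381_at and 1371221_at turned to -0.10 and -0.098 on the deposited scale.

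Fyco1 fell most. It read 12.16, 12.97 and 13.21 in young and 13.25, 13.29 and 13.39 in aged pachytene spermatocytes, and 10.23, 10.71 and 10.97 in young and 11.40, 11.55 and 11.93 in aged round spermatids. The 4 groups thus stood in the order aged pachytene, young pachytene, aged round and young round, with no overlap between neighbours. The difference was 3.81-fold (-1.93 ± 0.11, adjusted p = 4.66e-14), and was -2.18 in young rats and -1.68 in aged rats. Beside it, Sertoli cell markers were lower in round spermatids for 9 of 11 genes, with list means of 1.20 to 2.49 above the median of all genes in pachytene spermatocytes and -0.28 to 0.57 in round spermatids. Macrophage markers were higher there for 9 of 9 genes, from -0.51 to -0.23 in pachytene spermatocytes to 0.14 to 0.82. In pachytene spermatocytes only 1 of the 9 lay above the median of all genes. Peritubular markers were higher for 4 of 5 genes. Spermatogonial markers were higher for 4 of 6 and lower for 1, and Leydig cell markers higher for 1 of 6 and lower for 3. Of all genes 49.7% were higher and 38.6% lower. The part of other cell types in the differences between fractions was not tested.

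**Figure D2:**
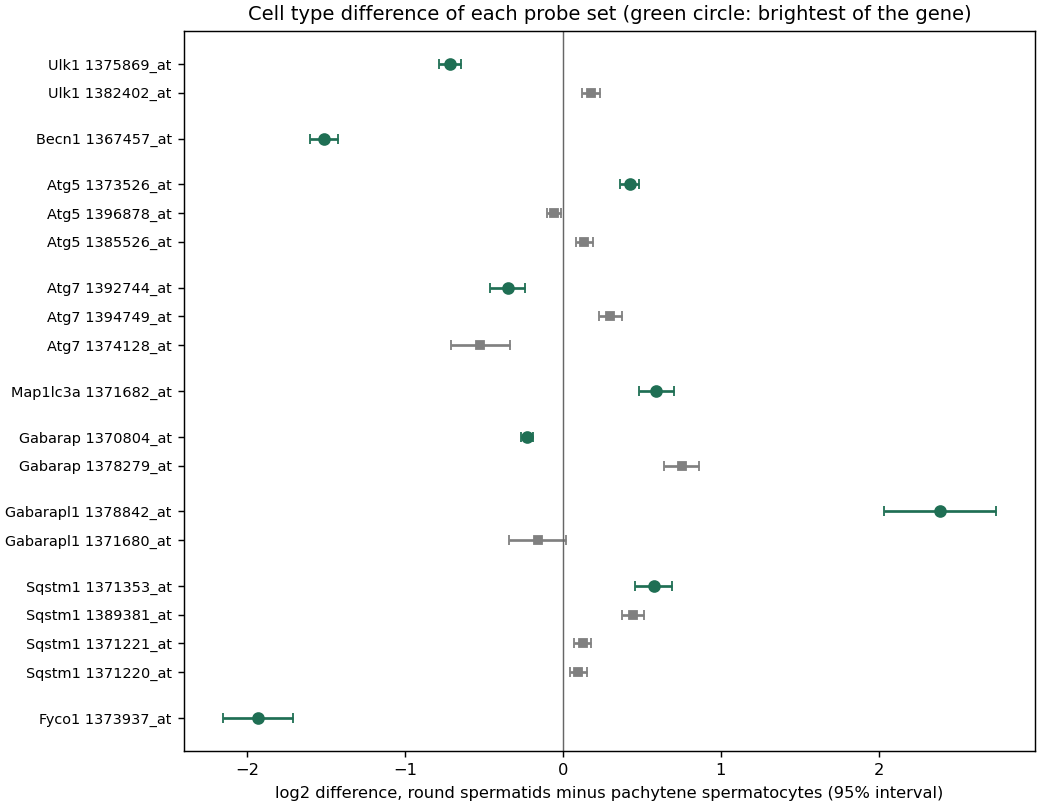
Log2 difference of each of the 19 probe sets, round spermatids minus pachytene spermatocytes, with its 95% interval from limma. Green circles are the brightest probe set of a gene and grey squares the others; Gabarapl1, Gabarap, Ulk1, Atg7 and Atg5 have probe sets on both sides of 0.

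With age in pachytene spermatocytes, 3 of 9 genes rose (Fyco1, Atg7 and Atg5), 1 fell (Sqstm1) and 5 were not called. Of all genes 25.5% rose and 18.9% fell, and of all probe sets 37.5% were called, so the share of members is near the background. The split of the members depends on the scaling: 6 rose and 1 fell with median centring, 1 rose and 4 fell on the deposited scale, and 1 rose and 3 fell with hybridization controls. Without young rats 1, 10 and 11, 0 rose and 1 fell (limma). The shares of all genes in these settings are not given here. The median of all probe sets moved too, by 0.13 with median centring, -0.24 as deposited and -0.12 with hybridization controls. The median change of the 9 genes was 0.035, against 0.049 for all genes. Levels for age are on the scale set within the fraction, and changes are aged minus young.

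Fyco1, the kinesin adaptor, read 12.13, 12.88 and 13.13 in young and 13.17, 13.22 and 13.32 in aged rats. All 6 aged rats lay above all 6 young rats, and the change was 1.36-fold (0.44 ± 0.15, adjusted p = 0.0296). Young rats 1, 10 and 11 were the lowest, at 12.13, 12.71 and 12.58. With median centring the change was 0.78 (adjusted p = 0.00440). Without these 3 rats it was 0.14 (adjusted p = 0.0583), and without young rat 10 or 11 or aged rat 5, 9 or 10 alone the adjusted p was 0.0511 to 0.0606.

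Both conjugation genes rose. Atg5 read 8.39, 8.44 and 8.51 in young and 8.52, 8.65 and 8.75 in aged rats, with no overlap (0.20 ± 0.049, adjusted p = 0.00773). Its sign turned without normalization (-0.22, adjusted p = 0.0161) and after centring on hybridization controls (-0.11), under which the median of all probe sets also fell, and without young rats 1, 10 and 11 the change was 0.17 (adjusted p = 0.0502). The other probe sets of Atg5 were not called. Atg7 read 9.40, 9.94 and 10.09 in young and 10.06, 10.21 and 10.29 in aged rats (0.31 ± 0.10, adjusted p = 0.0309), and 5 of 6 aged rats were above all young ones. Its other probe sets rose too, 1374128_at by 0.65 ± 0.17 (adjusted p = 0.0118) with no overlap and 1394749_at by 0.37 ± 0.087 (adjusted p = 0.00665). On the deposited scale the brightest probe set of Atg7 changed by 0.084 (adjusted p = 0.369) and 1394749_at by -0.019 (adjusted p = 0.846). Centred on hybridization controls they changed by 0.20 and 0.099 (adjusted p = 0.137 and 0.445), so 2 scalings ended both calls. For the brightest probe set of Atg7 the call was also lost without young rats 1, 10 and 11 (0.14, adjusted p = 0.125) and without young rat 10 or 11 or aged rat 5, 8, 9 or 10 alone (adjusted p = 0.0521 to 0.0643). The rise of 1374128_at fell by more than a factor of 1.5 without the 3 rats, to 0.30, and remained called (adjusted p = 0.00770).

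Sqstm1 fell with its brightest probe set, from 10.04, 10.10 and 10.61 in young to 9.80, 9.88 and 9.96 in aged rats, with no overlap (-0.30 ± 0.088, adjusted p = 0.0189). The call was kept without young rats 1, 10 and 11 (-0.20, adjusted p = 0.0153) and without each single rat. With median centring it was lost (-0.14, adjusted p = 0.185), and on the deposited scale the change was -0.52. The gene's other probe sets did not fall: 1389381_at rose by 0.16 ± 0.047 (adjusted p = 0.0200), which turned to -0.26 on the deposited scale. That call was lost without young rats 1, 10 and 11 (0.12, adjusted p = 0.119) and with median centring (0.11, adjusted p = 0.212). Probe sets 1371220_at and 1371221_at changed by 0.17 and 0.19 (adjusted p = 0.0666 and 0.0525). The mean over all 4 gave 0.055 (adjusted p = 0.281).

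Gabarapl1 had the widest spread. Its brightest probe set read 8.77, 9.42 and 10.87 in young and 8.53, 8.65 and 9.08 in aged rats, a change of -0.84 ± 0.31 that missed the threshold (adjusted p = 0.0511). Every other scaling gave a call: -1.16 as deposited (adjusted p = 0.00809), -1.04 when centred on hybridization controls (adjusted p = 0.0127) and -0.78 when centred on medians (adjusted p = 0.0321). It also passed without the dimmest 40% of probe sets (adjusted p = 0.0402) and as a mean over both probe sets (-0.78, adjusted p = 0.0216). Young rats 1, 10 and 11 read 10.87, 9.95 and 9.99, and the other young rats 8.77 to 8.90, within the range of the aged rats. Without those 3 the change was -0.12 (adjusted p = 0.440). The dimmer probe set 1371680_at fell with no overlap, from 8.15, 8.33 and 9.52 to 7.51, 7.80 and 7.94 (-0.73 ± 0.19, adjusted p = 0.0117), and by -0.43 without the 3 rats (adjusted p = 0.00368). Of 9 late spermiogenesis markers 8 were lower in aged rats, where 18.9% of all genes fell. The list mean above the median of all genes was 4.93 to 6.12 in young and 4.50 to 5.06 in aged rats. Sertoli cell markers moved as well, 9 of 11 lower, with list means of 1.92 to 2.58 in young and 1.17 to 1.54 in aged rats. Their part in the Gabarapl1 values was not tested.

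The remaining genes were not called with their brightest probe sets. Becn1 changed by 0.035 (95% interval -0.12 to 0.19), Map1lc3a by 0.082 (-0.032 to 0.20), Gabarap by 0.022 (-0.071 to 0.12) and Ulk1 by -0.13 (-0.28 to 0.010). Becn1, Map1lc3a and Gabarap passed the threshold with median centring (0.35, 0.39 and 0.40), and Ulk1 as deposited (-0.56) and when centred on hybridization controls (-0.44). For Gabarap the second probe set, 1378279_at, rose from 8.87, 9.30 and 9.37 to 9.52, 9.71 and 9.80, with no overlap (0.48 ± 0.091, adjusted p = 0.00221). It was also called without young rats 1, 10 and 11 (0.34, adjusted p = 0.00294), but on the deposited scale it changed by 0.18 (adjusted p = 0.0634).

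**Figure D3:**
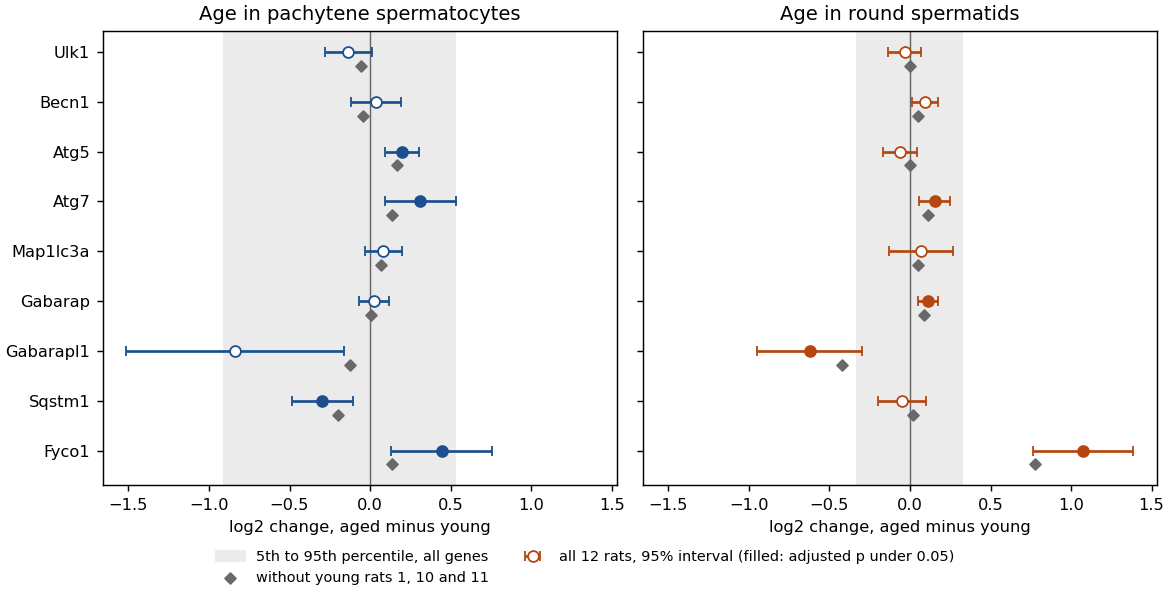
Log2 change with age (aged minus young) of the brightest probe set of each gene in pachytene spermatocytes and in round spermatids, with its 95% interval. Filled circles are called, diamonds are the change without young rats 1, 10 and 11, and the grey band runs from the 5th to the 95th percentile of all genes. In round spermatids Fyco1 lies above the band and Gabarapl1 below it, each with its diamond.

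With age in round spermatids, 3 of 9 genes rose (Fyco1, Gabarap and Atg7), 1 fell (Gabarapl1) and 5 were not called. Of all genes 12.5% rose and 12.4% fell, and of all probe sets 17.1% were called. Of the members 1 rose and 1 fell with median centring, 6 rose and 1 fell as deposited, 4 rose and 1 fell when centred on hybridization controls, and 1 rose and 0 fell (limma) without young rats 1, 10 and 11. The shares of all genes in these settings are not given here. The median of all probe sets moved by 0.0072 with median centring, 0.14 as deposited and 0.18 with hybridization controls. After quantile normalization the median change of the 9 genes was 0.069, against -0.00082 for all genes.

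Fyco1 had the largest age change of the 9 genes in either fraction. Young rats 1, 2, 3, 10, 11 and 13 read 10.30, 10.80, 10.75, 9.97, 10.29 and 10.71. Aged rats 2, 3, 5, 8, 9 and 10 read 11.29, 11.45, 11.46, 11.40, 11.77 and 11.90. Every aged rat lay above every young rat, by 2.11-fold (1.08 ± 0.14, adjusted p = 0.00178). The change was 0.97 to 1.14 when each rat was left out, 1.17 to 1.34 under the other scalings and 0.78 without young rats 1, 10 and 11 (adjusted p = 0.0153), and it was called in each case. Of 8 pachytene markers 3 rose, 0 fell and 5 were not called, where 12.5% of all genes rose and 12.4% fell. Those that rose were Sycp3, a synaptonemal complex protein, by 0.43, Mybl1, a meiotic transcription factor, by 0.77, and Ccna1, a germ cell cyclin, by 0.38. Ccna1 is the marker of that list that was higher in round spermatids than in pachytene spermatocytes. The mean of that list above the median of all genes was 1.60 to 2.00 in young and 1.90 to 2.15 in aged rats. The part of remaining spermatocytes in the Fyco1 rise was not tested.

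**Figure D4:**
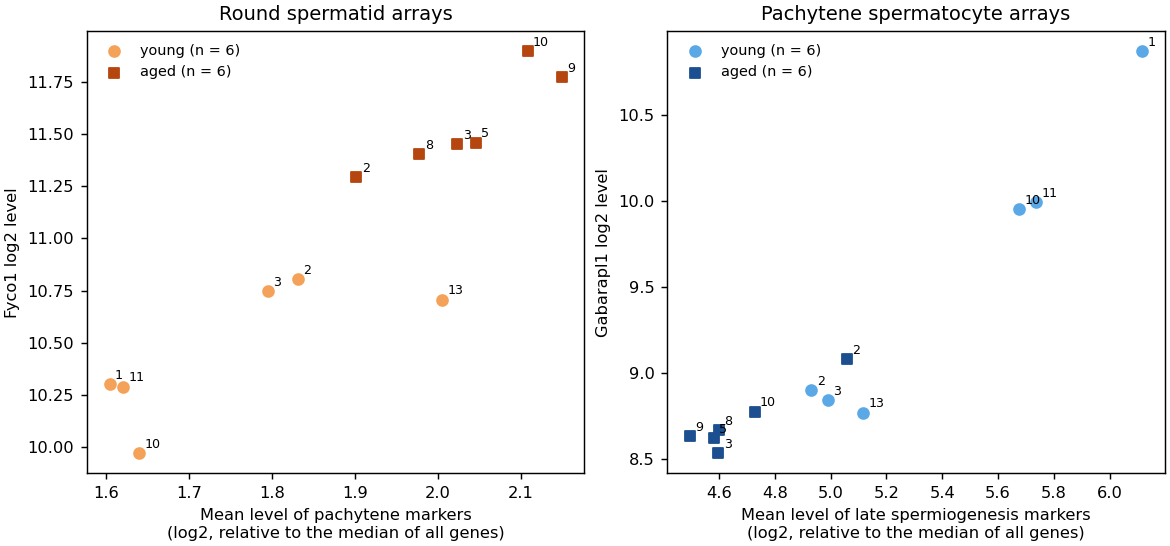
Left, Fyco1 level against the mean level of pachytene markers on the 12 round spermatid arrays. Right, Gabarapl1 level against the mean level of late spermiogenesis markers on the 12 pachytene arrays. Circles are young and squares aged rats, with the rat number. Young rat 13 has a pachytene marker level of 2.00 at a Fyco1 level of 10.71, and young rats 1, 10 and 11 stand apart on the right.

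Gabarapl1 fell in round spermatids, from 11.34, 11.67 and 12.36 in young to 10.82, 11.01 and 11.43 in aged rats. Of the aged rats 5 of 6 lay below all young ones (-0.62 ± 0.15, adjusted p = 0.0129). The call was kept under the other scalings, at -0.57 to -0.39, and without each single rat, but not without young rats 1, 10 and 11 (-0.42, adjusted p = 0.0725). The second probe set changed by -0.088 (adjusted p = 0.350). Of 9 late spermiogenesis markers 2 were lower in aged round spermatids, with list means of 6.40 to 6.51 in young and 6.33 to 6.40 in aged rats, and their part was not tested.

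Gabarap rose by a small amount that exceeded its narrow spread, from 13.54, 13.61 and 13.66 to 13.66, 13.72 and 13.77, with no overlap (0.11 ± 0.029, adjusted p = 0.0171). The change was 0.0072 with median centring (adjusted p = 0.958) and 0.087 without young rats 1, 10 and 11 (adjusted p = 0.186). Atg7 rose from 9.02, 9.13 and 9.29 to 9.20, 9.30 and 9.35 (0.15 ± 0.045, adjusted p = 0.0309), with 4 of 6 aged rats above all young ones. That call was near the threshold: leaving out young rat 10, 11 or 13 or aged rat 3, 5, 8, 9 or 10 gave an adjusted p of 0.0502 to 0.0750. It was lost without young rats 1, 10 and 11 (0.11, adjusted p = 0.262) and with median centring (0.23, adjusted p = 0.0925), while on the deposited scale the change was 0.36 (adjusted p = 0.00450). Its other probe sets changed by 0.24 (1374128_at, adjusted p = 0.0611) and -0.0057 (1394749_at), neither called.

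Becn1 (0.091, 95% interval 0.0099 to 0.17, adjusted p = 0.120), Map1lc3a (0.069, -0.13 to 0.27), Sqstm1 (-0.047, -0.20 to 0.10), Atg5 (-0.059, -0.16 to 0.047) and Ulk1 (-0.033, -0.13 to 0.067) were not called. The other probe sets of these genes were not called either. On the deposited scale Becn1 (0.36, adjusted p = 0.00635), Sqstm1 (0.22, adjusted p = 0.0453) and Atg5 (0.13, adjusted p = 0.0386) passed as higher. With hybridization controls Becn1 (0.40, adjusted p = 0.000471) and Sqstm1 (0.26, adjusted p = 0.0319) did.

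The age change was then compared between the fractions, as the change in round spermatids minus that in pachytene spermatocytes. For members 0 of 9 genes were higher and 1 was lower, against 7.33% and 8.84% of all genes. Of all probe sets 5.98% were higher and 7.04% lower. Here too the split depends on the scaling, each applied after the added constant. On the deposited scale with the constant 6 were higher and 0 lower (Becn1, Fyco1, Sqstm1, Atg5, Atg7 and Ulk1). The counts were 4 and 0 with hybridization controls, and 1 and 1 with median centring (limma). The shares of all genes under these scalings are not given here. The gene called after quantile normalization was Atg5, with -0.20 ± 0.060 (adjusted p = 0.0319): it rose in pachytene spermatocytes and was not called in round spermatids. This call was lost without young rat 11 or aged rat 5, 8, 9 or 10 alone (adjusted p = 0.0548 to 0.0851) and without young rats 1, 10 and 11 together (-0.12, adjusted p = 0.195). With median centring the difference was -0.040 (adjusted p = 0.457), and its sign turned without normalization (0.31) and after centring on hybridization controls (0.24). Of the other probe sets, 1389381_at of Sqstm1 was called (-0.26 ± 0.067, adjusted p = 0.0141) and also turned, to 0.26, on the deposited scale. That call was lost without young rats 1, 10 and 11 (-0.15, adjusted p = 0.207) and without aged rat 8 alone (-0.23, adjusted p = 0.0501). The brightest probe set of Sqstm1 differed in the other direction, by 0.25, and was not called (adjusted p = 0.138). It was called as higher with median centring (0.34), as deposited (0.70) and when centred on hybridization controls (0.63). Fyco1, called in both fractions, differed by 0.50 (95% interval 0.059 to 0.94, adjusted p = 0.123), which missed the threshold. It passed as deposited (0.90, adjusted p = 0.00259) and when centred on hybridization controls (0.83, adjusted p = 0.00545). Without young rats 1, 10 and 11 that difference was 0.56 (adjusted p = 0.00558). Without young rat 1 alone it was 0.61 (adjusted p = 0.0320). For Gabarapl1 the difference was 0.18 (-0.53 to 0.89), an interval wide enough to hold changes of either sign.

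Of 71 other autophagy genes listed by role, 65 were measured. In pachytene spermatocytes 19 rose and 15 fell with age, and in round spermatids 14 rose and 7 fell. Of all genes 25.5% rose and 18.9% fell in pachytene spermatocytes, and 12.5% rose and 12.4% fell in round spermatids. The split depends on the scaling: on the deposited scale 7 rose and 37 fell in pachytene spermatocytes, and 36 rose and 1 fell in round spermatids. The shares of all genes on that scale are not given here. The median of all probe sets moved there by -0.24 in pachytene spermatocytes and 0.14 in round spermatids. After quantile normalization the median changes of the listed genes were 0.047 and -0.013.

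Among the genes of initiation in pachytene spermatocytes, Prkaa1, a catalytic subunit of AMP kinase, rose by 0.61 (adjusted p = 0.00230), and Prkaa2, the other catalytic subunit, fell by 0.45 (adjusted p = 0.00206). Atg13, of the Ulk1 complex, rose by 0.23 and Atg2a, a lipid transfer protein, by 0.33. Of the 13 genes of fusion and transport, 7 rose and 2 fell, where 25.5% of all genes rose and 18.9% fell. Plekhm1, an adaptor for fusion, rose by 0.55 (adjusted p = 0.00454), and Epg5, a tether, fell by 0.76 (adjusted p = 0.00134). Of the 12 lysosomal genes, 1 rose and 6 fell, among them Ctsl, the protease cathepsin L, by 0.99 (adjusted p = 0.00204). Of the 9 cargo receptors, 2 rose and 4 fell, with Tax1bp1 down by 0.61 (adjusted p = 0.00239). Cathepsin L is also a product of Sertoli cells, whose markers were lower in the same rats as given above, and their part in these falls was not tested.

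In round spermatids, 6 of the 13 genes of fusion and transport rose and 1 fell, among 14 rises and 7 falls in the whole list. Of all genes 12.5% rose and 12.4% fell there. Snap29, a fusion SNARE, rose by 0.62 (adjusted p = 0.00247) and Vps16, of the tethering complex, by 0.28 (adjusted p = 0.00259). Tollip, a ubiquitin-binding receptor, rose by 0.59 (adjusted p = 0.00223) and Atp6v1b2, of the proton pump, by 0.26 (adjusted p = 0.00349). Ctsl fell by 1.05 (adjusted p = 0.00285), Lamp2, a lysosomal membrane protein, by 0.21, Epg5 by 0.19 and Atg2a by 0.17. Sertoli cell markers were lower in aged round spermatids for 6 of 11 genes, with list means of 0.22 to 0.64 in young and -0.19 to 0.10 in aged rats.

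**Figure D5:**
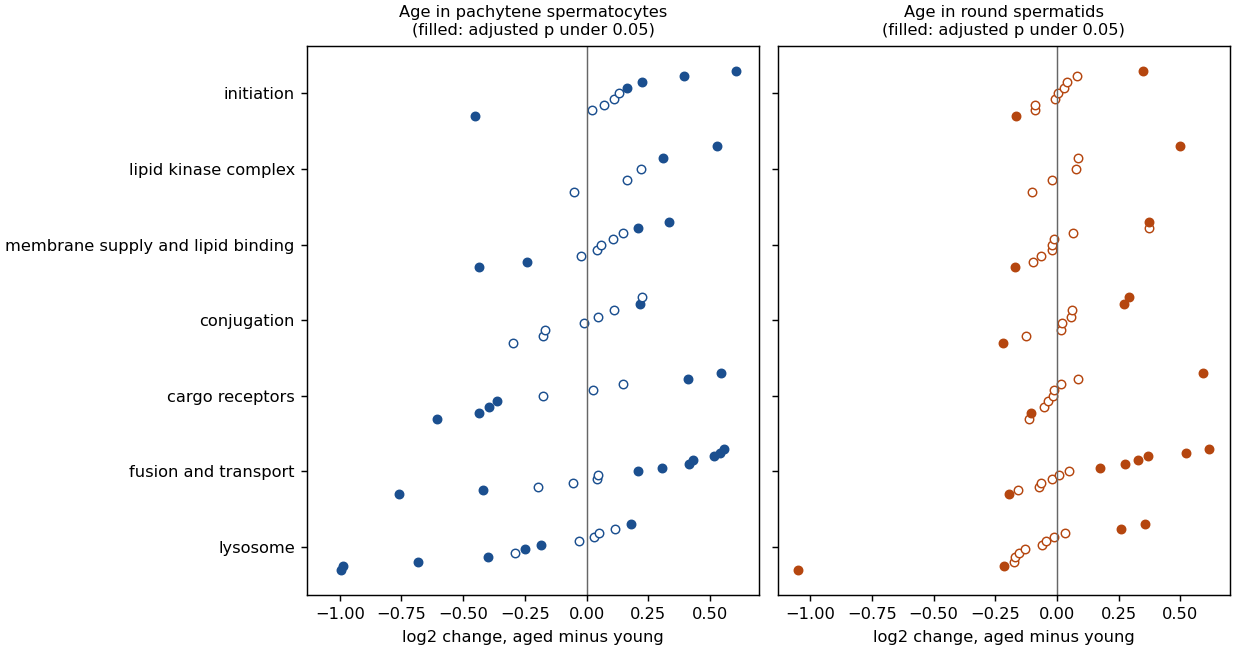
Log2 change with age of the other measured autophagy genes, grouped by role, in both fractions. Each point is 1 gene, filled where it was called. In pachytene spermatocytes 6 of 12 lysosomal genes lie filled to the left and 7 of 13 genes of fusion and transport filled to the right. Of all genes 18.9% fell and 25.5% rose there. The changes are those after quantile normalization, and the split of the whole list depends on the scaling.

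For the age difference between fractions, 7 of the 65 genes were higher and 7 lower, against 7.33% and 8.84% of all genes. Atp6v1a (0.51), Atp6v1b2 (0.29), Tax1bp1 (0.59) and Prkaa2 (0.20) had the smallest adjusted p among the higher, 0.00238 to 0.0130. Atg2a (-0.45), Prkaa1 (-0.72), Vps18 (-0.22) and Mtor (-0.26) had the smallest among the lower, 0.000385 to 0.0119. On the deposited scale with the added constant 48 were higher and 0 lower (limma), and the share of all genes there is not given here. Between the fractions themselves 26 were higher and 32 lower in round spermatids. Of all genes 49.7% were higher and 38.6% lower, so the count of calls does not set the list apart. That split is from quantile normalization after the added constant, and other scalings are not given for it here. Tfeb, the transcription factor of lysosomal genes, was higher by 0.89, Optn, a receptor, by 1.22, Uvrag, of the lipid kinase complex, by 0.76 and Atg3, a conjugating enzyme, by 0.66. Atg101, of the Ulk1 complex, was lower by -1.10, Tmem41b, a lipid scramblase, by -1.06, Atg14, the partner of Becn1, by -0.91 and Vps41, of a tethering complex, by -0.67.

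The genes whose level was most like that of 2 members over the 24 arrays were found by the root mean square (RMS) difference between levels centred on each gene's mean. For Fyco1, chosen for the largest age change and with an RMS spread of 1.06 of its own, these were Zmynd10 (0.115), Slc2a3 (0.118) and Dctn5 (0.140). Their age changes were 0.87, 1.22 and 0.69 in round spermatids and 0.56, 0.32 and 0.52 in pachytene spermatocytes. For Gabarapl1, chosen for the largest difference between fractions and with an RMS spread of 1.30, they were C3h9orf50 (0.0953), Nmt2 (0.0967) and Ccdc159 (0.110). These were higher in round spermatids by 2.43, 2.44 and 2.45, and changed with age by -0.72, -1.04 and -0.94 in pachytene spermatocytes and by -0.44, -0.67 and -0.62 in round spermatids.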

How the data were processed

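Per the labels, RNA was extracted with a Qiagen kit and 3 ug of total RNA gave the biotinylated cRNA of each array. The authors deposited log2 signals per probe set. The software behind them was not given in the sources used here. The number of arrays limits the precision, and the values carry no detection calls. From these values, 57 control probe sets were left out of the tests, and limma 3.58.1 in R 4.3.3 (lmFit, eBayes) was run on 31042 probe sets. For age, arrays were quantile normalized within a fraction. For the fractions and the difference of the age change, a constant fitted on 45 bacterial and phage control probe sets was first added to the pachytene signals: their mean difference between fractions was 0.61 ± 0.77 (SD over control probe sets) before and -0.027 ± 0.17 after. Named genes are all members, up to 4 listed pathway genes per direction with the smallest adjusted p, and 3 genes of like level for 2 members. The platform annotation gave 1 symbol to 20826 probe sets, several to 436 and none to 9780. The members and lists, and the choice of the constant, were made with earlier results of these data known. Alternatives were other scalings, no dim probe sets, another eBayes setting, each rat left out, young rats 1, 10 and 11 left out, replicate blocks, each age alone, and gene means. The fits were tested on simulated data. The 2 fractions were paired by rat number. Their deviations from group means correlated at -0.079 to 0.38, above 0.1 in 8 of 12 rats.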

Additional observations from a re-analysis of the deposited data

Results flagged for a closer look

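In 36 groups of 6 arrays (9 brightest probe sets in 4 groups), 6 arrays lay far from the rest of their group; chance flags about 1 group in 20. In young pachytene spermatocytes, rat 1 read 10.61 for Sqstm1 where the other 5 rats read 10.04 to 10.17, 13.64 for Gabarap against 13.76 to 13.80, and 9.40 for Atg7 against 9.83 to 10.09. Rat 10 of the same group read 11.78 for Map1lc3a against 11.96 to 12.05. In young round spermatids, rat 10 read 9.01 for Atg5 against 8.71 to 8.76. In aged round spermatids, rat 2 read 13.01 for Map1lc3a against 12.58 to 12.68.

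The age change differed between fractions by the interaction test in limma for Sqstm1 probe set 1389381_at, by -0.26 (adjusted p = 0.0141), and for Atg5 probe set 1373526_at, by -0.20 (adjusted p = 0.0319). The Sqstm1 probe set changed by 0.16 in pachytene spermatocytes and by -0.14 in round spermatids, and Atg5 by 0.20 and -0.059. The brightest probe set of Sqstm1 differed in the other direction, by 0.25, and was not called (limma, adjusted p = 0.138). The direction for Sqstm1 therefore depends on the probe set.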

How the results depend on the processing

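Number of the 9 genes called: for age in pachytene spermatocytes 4, with 7 under median centring, 1 without young rats 1, 10 and 11, and 2 to 5 when each rat was left out. For age in round spermatids 4, with 2 under median centring, 7 on the deposited scale, 2 with trend and robust eBayes and 1 without those 3 rats. For the difference of the age change 1, with 2 under median centring, 6 on the deposited scale, 4 with hybridization controls, 0 with trend and robust eBayes (limma), 0 with gene means, and 0 to 3 when each rat was left out. Between fractions 8 or 9 were called under every setting run. The replicate block over shared numbers, which mark different rats, gave 4 and 4, and the rat as a replicate block gave 9 between fractions and 1 for the difference, so pairing changed no count. Multiplying the constant by 0.5 or 2 was chosen after seeing the data and changed no count either. Shares of all genes are given only for quantile normalization with all rats, so the counts under other settings have no background beside them.

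Changes of sign were as follows, and the causes were not tested. Between fractions and for the difference, the other scalings follow the added constant. Age, pachytene: as deposited, Becn1 -0.027, Atg5 -0.22, Sqstm1 1389381_at -0.26 and Atg7 1394749_at -0.019; centred on hybridization controls, Atg5 -0.11 and Sqstm1 1389381_at -0.14; without the 3 rats, Becn1 -0.042; by gene mean, Sqstm1 0.055. With each rat left out, Becn1 spanned -0.024 to 0.062 and Gabarap -0.0030 to 0.031, the lowest without young rat 1. Age, round: median centring, Sqstm1 0.083; as deposited, Sqstm1 0.22, Atg5 0.13 and Ulk1 0.10; hybridization controls, Sqstm1 0.26, Atg5 0.17 and Ulk1 0.14; without the 3 rats, Sqstm1 0.017 and Ulk1 0.0013; gene mean, Ulk1 0.0088; each rat left out, Ulk1 -0.062 to 0.00062, the highest without young rat 10. Between fractions: median centring, Atg5 -0.058, 1385526_at -0.32 and 1396878_at 0.11, Sqstm1 1371221_at -0.040 and 1389381_at -0.046; as deposited, Atg5 -0.12, 1385526_at -0.38 and 1396878_at 0.054, Sqstm1 1371221_at -0.098 and 1389381_at -0.10; hybridization controls, Atg5 -0.17 and 1385526_at -0.44, Sqstm1 1371221_at -0.15 and 1389381_at -0.16; gene mean, Gabarap 0.26. Difference: median centring, Gabarap -0.24; as deposited, Map1lc3a 0.17, Atg5 0.31, Atg7 0.29 and Sqstm1 1389381_at 0.26; hybridization controls, Map1lc3a 0.099, Atg5 0.24, Atg7 0.21 and Sqstm1 1389381_at 0.19; without the 3 rats, Gabarapl1 -0.29; gene mean, Gabarap -0.069 and Sqstm1 -0.026. With each rat left out, Gabarapl1 spanned -0.083 to 0.34 (lowest without young rat 1), Map1lc3a -0.11 to 0.037 (above 0 without young rat 2 or 10) and Becn1 -0.0057 to 0.098 (lowest without young rat 10). Probe sets near the absent control limit what can be read for Ulk1, and the constant compresses folds of dim probe sets.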
